A study of Mus musculus with 14 samples.

Results

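The collagen genes of mouse tumor-derived cells are described here. They were taken as every gene symbol made of Col, a number, the letter a and a number, which gave 44 of the 55433 genes in the RNA table and 44 of the 22470 gene bodies in the chromatin table. Total RNA was sequenced from 3 libraries labelled sgNSD3, whose cells carried a guide RNA against NSD3, and from 3 libraries labelled sgControl, whose cells carried a control guide. All cells were of the C57BL/6 strain, at passages 6 to 8, and grew on coated dishes whose coating is not named. The tumor of origin, the way the guides were delivered and whether a condition is 1 clone or a pool are not given in the sources used here. The labels do not say whether the 3 libraries of a condition stem from different cultures. The p-values therefore reflect variation among these libraries, and part or all of that variation may be technical.

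Collagens are extracellular proteins in which 3 alpha chains wind into a triple helix, each chain being the product of its own gene. Fibrillar collagens form the banded fibrils of connective tissue, type IV collagen forms the sheet-like network of basement membranes, FACITs (fibril-associated collagens with interrupted triple helices) decorate fibrils, and type VI collagen forms beaded filaments around cells. In tumors, collagen is a main component of the stroma and is made mostly by fibroblast-like cells. NSD3 is a histone methyltransferase that places methyl groups on lysine 36 of histone H3.

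The libraries held 20294828 to 21863833 recovered reads, and levels below are normalized counts, meaning reads divided by a library scaling factor. They are not divided by transcript length, so levels of different genes are not compared. Nsd3 RNA was higher, not lower, in libraries labelled sgNSD3. It averaged 22010 ± 95.2 normalized counts there and 14591 ± 138 in sgControl libraries (SD, n = 3 each). The deposited columns of the sgNSD3 libraries are named KO, and the labels do not say whether the guide lowers Nsd3 RNA. Its level therefore cannot check the labels, and every direction below rests on them. Ribosomal RNA loci and mitochondrial genes took 10.1% to 10.3% of the reads in sgNSD3 libraries and 9.09% to 11.4% in sgControl libraries, where replicate 1 was the highest. The labels name no cell type. Summed counts of 8 mesenchymal markers overlapped (54661 to 55950 in sgNSD3 libraries, 54064 to 56014 in sgControl libraries) and were nearly all Vim. Of these markers, 3 were called higher: Prrx1 (48.85 in sgNSD3 and 13.4 in sgControl on average), Thy1 (90.6 and 58.7) and Pdgfrb (812 and 715). Pdgfra was called lower (2140 in sgNSD3 and 2345 in sgControl), and the part of these genes in the results was not tested. Of 8 epithelial markers, Epcam, Cdh1, Krt5 and Trp63 were at or near 0 in all 6 libraries, and the others were tested. The sum over all 8 epithelial markers, mostly Krt19, was 3081 to 3112 in sgNSD3 libraries and 4276 to 4840 in sgControl libraries, and its part in the results below was not tested. Of the 4 tested genes, 3 were called lower: Krt19 (2684 in sgNSD3 and 3922 in sgControl on average), Krt18 (235 and 306) and Krt14 (140 and 223). Krt8 was not called (29.6 and 32.7). Sums of 6 smooth muscle or pericyte markers overlapped (36363 to 37325 in sgNSD3 libraries, 35454 to 37664 in sgControl libraries) and were nearly all Acta2. One member of that list, Cnn1, was called higher, at 823 in sgNSD3 and 496 in sgControl on average, and its part in the results was not tested. Sums of 6 leukocyte markers were 237 to 252 in sgNSD3 libraries and 230.5 to 238 in sgControl libraries, nearly all Csf1r and Cd68, with Ptprc near 0. Csf1r averaged 178 in sgNSD3 and 155 in sgControl, without overlap, and Cd68 averaged 65.4 and 77.0. Neither was called (limma adjusted p = 0.201 and 0.363), and their part in the results was not tested. In bulk RNA, fewer cells of a type and less RNA per cell cannot be told apart.

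Across the collagen genes, most called changes were small and upward in sgNSD3 libraries. Of 44 genes, 31 passed the minimum mean of 8 normalized counts and were tested. By limma with Benjamini-Hochberg adjustment over all 18278 genes tested, at a threshold of 0.05, 9 were higher in libraries labelled sgNSD3 and 1 was lower. The 9 make 29.0% of the tested collagen genes, where 5.43% of all genes were called higher, and the 1 lower gene makes 3.23%, where 6.43% of all genes were called lower. Calls in either direction covered 11.9% of all genes. The conditions did not overlap for 14 of the 31 collagen genes (45.2%), beside 28.4% of all genes. The median log2 fold of the 31 was 0.09, beside 7e-04 over all genes, and Col18a1 had the largest called change, 1.42-fold. The other 9 called genes changed by 1.06-fold to 1.24-fold. Calls for 6 of the 10 genes, Col5a3, Col4a5, Col4a6, Col12a1, Col18a1 and Col8a1, held under every alternative run with the same threshold, and those for Col1a1, Col11a1, Col6a1 and Col8a2 did not.

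**Figure D1:**
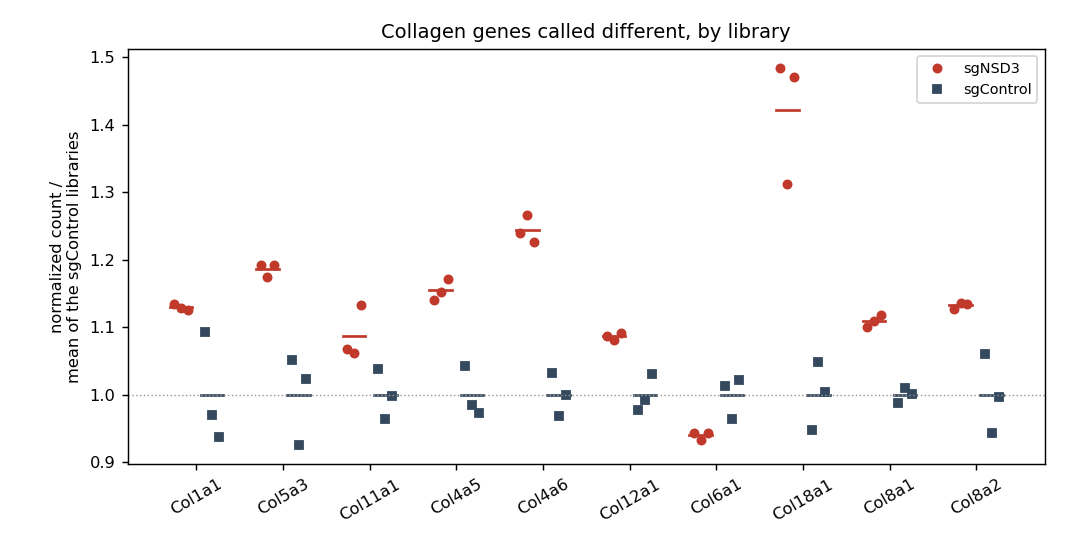
Normalized counts of the 10 called collagen genes in each of the 6 libraries (points), divided by the gene's mean over the sgControl libraries, with the mean of each condition as a dash and sgNSD3 left of sgControl. Col6a1 is the gene called lower in sgNSD3, the other 9 are higher, and the conditions do not overlap for any of the 10.

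Among the fibrillar collagens, the alpha 1 chain genes of types I and XI and the alpha 3 chain gene of type V rose, and the other chain genes of types I, III and V were not called. The 11 fibrillar genes took 4.18% ± 0.0126 of all reads in sgNSD3 libraries and 4.06% ± 0.174 in sgControl libraries (SD, n = 3 each), and all 44 collagen genes took 4.84% ± 0.0136 in sgNSD3 libraries and 4.71% ± 0.168 in sgControl libraries. The conditions overlapped in both shares, which were highest in sgControl replicate 1 (4.246% for the fibrillar and 4.898% for all collagen genes). Of the 9 fibrillar genes tested, 3 were higher (Col1a1, Col5a3 and Col11a1) and the other 6 were not called. The class median log2 fold was 0.06.

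Col1a1 encodes the alpha 1 chain of type I collagen, the chief collagen of skin, bone and tendon, and lies at chr11:94936224-94953042 (mm10, as are all positions here). It had 432872, 430672 and 429807 normalized counts in sgNSD3 replicates 1 to 3, against 417059, 370354 and 357576 in sgControl replicates 1 to 3. The sgNSD3 libraries lay close together and above all sgControl libraries, which spread more widely. The means were 431117 ± 1580 in sgNSD3 and 381663 ± 31313 in sgControl, 1.13-fold higher in sgNSD3, with a log2 fold of 0.18 ± 0.036 (SE) and an adjusted p of 0.00551. Without sgNSD3 replicate 1 the adjusted p was 0.0561 and without replicate 2 it was 0.0547. Quantile normalization gave a log2 fold of 0.00 for this gene.

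Col1a2 encodes the other chain of type I collagen, which pairs with the alpha 1 chain in a ratio of 1 to 2. Its counts were 283461, 277862 and 282022 in sgNSD3 libraries, against 318545, 300555 and 285077 in sgControl libraries. All sgNSD3 values lay below all sgControl values, the reverse of Col1a1, but the difference missed the threshold (log2 fold −0.10 ± 0.030, adjusted p = 0.0831). Of the alternatives, 5 did call Col1a2 lower, with adjusted p-values over all 16 of them from 5.53e-08 to 0.319. The lowest came from quantile normalization, which moved the log2 fold to −0.18. Among the other alternatives the lowest was 0.00248, without sgControl replicate 3. The ratio of Col1a1 to Col1a2 within a library needs no scaling between libraries. It was 1.53, 1.55 and 1.52 in sgNSD3 libraries, against 1.31, 1.23 and 1.25 in sgControl libraries. No values overlapped, and the log2 ratio differed by 0.28 (exact two-sided permutation test p = 0.1, the smallest that 3 against 3 can give, and 0.125 after adjustment over the 5 ratios compared).

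Type III and type V collagens join type I in mixed fibrils. Col3a1, whose product forms homotrimers, had 67416, 68567 and 67965 normalized counts in sgNSD3 libraries, against 73549, 69344 and 65176 in sgControl libraries. The sgNSD3 values lay inside the sgControl range (log2 fold −0.03 ± 0.031, adjusted p = 0.684). The ratio of Col3a1 to Col1a1 was 0.156, 0.159 and 0.158 in sgNSD3 libraries, against 0.176, 0.187 and 0.182 in sgControl libraries. Again no values overlapped, with a log2 difference of −0.21 (exact permutation p = 0.1, adjusted 0.125).

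Type V collagen is a minor fibril component known to limit fibril diameter. Col5a1 had 29810, 29804 and 30290 normalized counts in sgNSD3 libraries, against 30025, 26921 and 27510 in sgControl libraries. The ranges overlapped through sgControl replicate 1 (log2 fold 0.09 ± 0.031, adjusted p = 0.0688). Col5a2 had 64146, 65156 and 64716 in sgNSD3 libraries, against 69316, 67938 and 67924 in sgControl libraries, so every sgNSD3 value was below every sgControl value. It also missed the threshold (log2 fold −0.08 ± 0.023, adjusted p = 0.060). The ratio of Col5a1 to Col5a2 was 0.465, 0.457 and 0.468 in sgNSD3 libraries, against 0.433, 0.396 and 0.405 in sgControl libraries. As for type I, the ratio of the alpha 1 to the alpha 2 chain gene was higher in all sgNSD3 libraries (log2 difference 0.17, exact permutation p = 0.1, adjusted 0.125).

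The remaining type V chain gene was called. Col5a3 (chr9:20770050-20815117) had 693, 684 and 694 normalized counts in sgNSD3 libraries, against 612, 538 and 595 in sgControl libraries. Its groups stood apart at a 1.19-fold difference (log2 fold 0.25 ± 0.057, adjusted p = 0.00399). Col11a1 (chr3:114030479-114220756), a chain of the minor fibrillar collagen of cartilage that tumor stroma can also make, had 2834, 2821 and 3007 in sgNSD3 libraries, against 2757, 2559 and 2653 in sgControl libraries. It was 1.09-fold higher in sgNSD3 (log2 fold 0.12 ± 0.037, adjusted p = 0.029), and leaving out any of the sgNSD3 libraries, or sgControl replicate 2 or 3, ended the call, with adjusted p-values from 0.00395 to 0.211 over all alternatives. Col11a2 and Col27a1 were tested and not called (adjusted p = 0.661 and 0.588). Col2a1, the main collagen of cartilage, had 4.15 to 7.69 normalized counts in sgNSD3 libraries and 6.11 to 9.43 in sgControl libraries, and it was not tested, nor was Col24a1 with 24 reads in all. A list of 6 cartilage markers summed to 57.7 to 72.6 in sgNSD3 libraries and 61.1 to 83.5 in sgControl libraries.

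**Figure D2:**
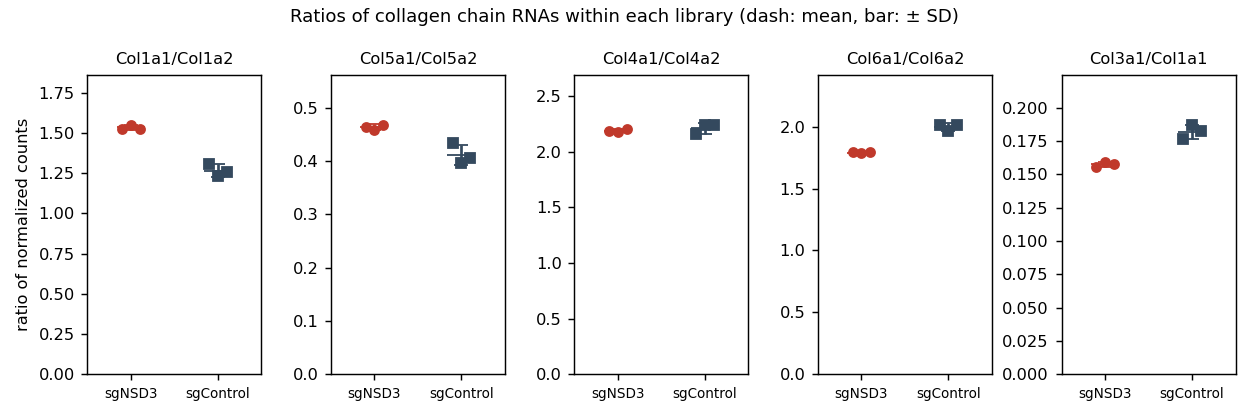
Ratio of normalized counts of 5 pairs of chain genes within each library (points), with the mean (dash) and SD (bar) of each condition, sgNSD3 left of sgControl. The conditions do not overlap for Col1a1/Col1a2, Col5a1/Col5a2, Col6a1/Col6a2 and Col3a1/Col1a1 and overlap for Col4a1/Col4a2.

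Among the basement membrane genes, the X-linked pair rose and the most heavily read pair was not called. Mouse type IV collagen has 6 chain genes, arranged as 3 pairs in which the partners lie head to head on opposite strands. Of the 5 genes tested, 2 were higher in sgNSD3 and 3 were not called, with a class median log2 fold of 0.08. The start regions of 4 of them are shown because both partners rose in RNA in the X-linked pair and neither was called in the chromosome 8 pair. The difference between the pairs was not itself tested. The sequences run 5′ to 3′ on the strand of each gene, from 250 bases before to 50 bases after the start, as given by RefSeq for GRCm38.p6 (mm10), and capitals mark matches to the CCAAT box, to the TATA box searched as TATAAA and to the GC box searched as GGGCGG, on either strand.
Col4a5: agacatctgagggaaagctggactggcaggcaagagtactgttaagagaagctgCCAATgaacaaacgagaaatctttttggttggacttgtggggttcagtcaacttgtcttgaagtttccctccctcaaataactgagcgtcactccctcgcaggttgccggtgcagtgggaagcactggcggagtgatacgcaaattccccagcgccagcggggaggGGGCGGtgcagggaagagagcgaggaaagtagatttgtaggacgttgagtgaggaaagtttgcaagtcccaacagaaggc
Col4a6: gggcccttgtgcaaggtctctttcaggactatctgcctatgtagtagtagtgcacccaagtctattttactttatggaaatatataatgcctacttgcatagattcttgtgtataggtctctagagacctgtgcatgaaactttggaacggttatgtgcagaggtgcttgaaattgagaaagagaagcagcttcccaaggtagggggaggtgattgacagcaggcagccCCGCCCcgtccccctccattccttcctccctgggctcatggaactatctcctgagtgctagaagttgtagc
Col4a2: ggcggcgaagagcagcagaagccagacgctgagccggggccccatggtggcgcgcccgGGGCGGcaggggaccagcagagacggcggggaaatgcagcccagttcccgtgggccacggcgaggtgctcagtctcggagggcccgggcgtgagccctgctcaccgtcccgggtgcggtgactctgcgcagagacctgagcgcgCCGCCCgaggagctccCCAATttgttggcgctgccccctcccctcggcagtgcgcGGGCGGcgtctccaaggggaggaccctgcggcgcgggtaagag
Col4a1: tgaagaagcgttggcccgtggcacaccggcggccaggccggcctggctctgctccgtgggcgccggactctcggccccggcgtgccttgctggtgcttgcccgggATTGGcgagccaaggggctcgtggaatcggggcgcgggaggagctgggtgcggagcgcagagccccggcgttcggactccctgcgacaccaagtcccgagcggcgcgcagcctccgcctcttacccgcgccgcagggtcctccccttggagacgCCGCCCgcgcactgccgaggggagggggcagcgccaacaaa
The Col4a5 window lies at chrX:141475169-141475468 on the plus strand and the Col4a6 window at chrX:141474027-141474326 on the minus strand. The start sites of these windows are 1343 bases apart and the windows share no bases. For Col4a2 (chr8:11312555-11312854, plus strand) and Col4a1 (chr8:11312777-11313076, minus strand), the start sites of the windows are 21 bases apart, and the windows share 78 bases. For Col4a5, Col4a6 and Col4a1, the start site of the window differs from the start in the gene span given below, so distances by span differ. The X-linked windows held 52.7% (Col4a5) and 48.3% (Col4a6) G and C bases, and the chromosome 8 windows held 73.7% (Col4a2) and 74.0% (Col4a1), where the median of all 32851 windows was 52.7%. CCAAT was found on the printed strand of Col4a5 and Col4a2 and on the opposite strand of Col4a1, and not in the Col4a6 window. GGGCGG was found in all 4 windows and TATAAA in none, and within a window no match overlapped another. The GGGCGG match of the Col4a1 window lies in the 78 shared bases and is the same site as the last match in the Col4a2 window. On either strand, CCAAT was present in 37.4% of all windows and 13 of 38 collagen windows (34.2%), TATAAA in 13.6% of all and 13.2% of collagen windows, and GGGCGG in 35.7% of all and 60.5% of collagen windows. The 38 windows belong to 35 of the 44 collagen genes.

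Col4a5 encodes the alpha 5 chain, whose loss in humans causes the kidney disorder Alport syndrome, and its gene spans chrX:141475370-141689236. It had 7402, 7482 and 7606 normalized counts in sgNSD3 libraries, against 6773, 6394 and 6315 in sgControl libraries. All sgNSD3 values were above all sgControl values, and the 1.15-fold difference passed the test (log2 fold 0.21 ± 0.031, adjusted p = 3.02e-05). Col4a6 encodes the alpha 6 chain, which joins alpha 5 in some basement membranes (chrX:141165403-141474095). With 4555, 4655 and 4510 in sgNSD3 libraries, against 3794, 3562 and 3677 in sgControl libraries, it had the smallest adjusted p of the collagen genes (1.06e-07) and a 1.24-fold difference (log2 fold 0.31 ± 0.032). Both kept their calls in every alternative, with adjusted p-values of at most 0.00116 for Col4a5 and 1.42e-05 for Col4a6.

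Col4a1 and Col4a2, the chains of the most widespread basement membrane network, were not called. Col4a1 (chr8:11198423-11312889) had 42999, 42865 and 44140 normalized counts in sgNSD3 libraries, against 46602, 44188 and 45109 in sgControl libraries. The highest sgNSD3 value lay just under the lowest sgControl value, and the difference missed the threshold (log2 fold −0.06 ± 0.025, adjusted p = 0.164). Col4a2 (chr8:11312805-11449287) had 19638, 19686 and 20021 in sgNSD3 libraries, against 21619, 19719 and 20116 in sgControl libraries. Its ranges overlapped (log2 fold −0.05 ± 0.029, adjusted p = 0.347). Their ratio, 2.19 in sgNSD3 and 2.21 in sgControl on average, overlapped too, with a log2 difference of −0.01 (exact permutation p = 0.4, also 0.4 after adjustment). The annotated spans of Col4a1 and Col4a2 overlap at their starts, and whether counting used strand is not stated. Of the remaining pair, Col4a4 averaged 116 ± 15.7 in sgNSD3 and 110 ± 16.6 in sgControl (adjusted p = 0.775), and Col4a3 had 42 reads in all and was not tested.

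**Figure D3:**
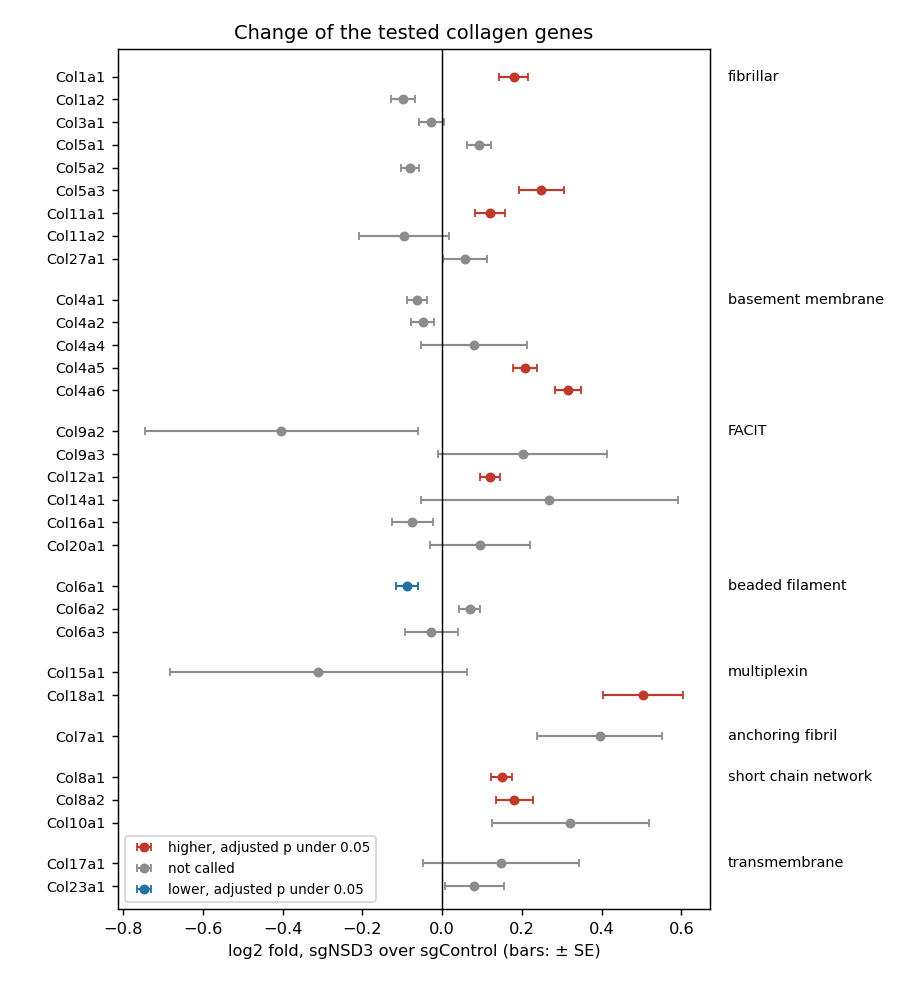
Log2 fold (sgNSD3 over sgControl, with SE) of the 31 tested collagen genes by class, on the log2(normalized count + 1) scale, coloured by call. The values right of 0 include the 9 genes called higher, from Col12a1 and Col11a1 at 0.12 to Col18a1 at 0.50, and Col6a1, called lower, lies at −0.09.

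Of the 9 FACIT genes, 6 were tested and 1 was called. Col12a1 (chr9:79598987-79721141), which encodes a long fibril-associated chain found in dense connective tissue, had 23764, 23622 and 23845 normalized counts in sgNSD3 libraries, against 21360, 21677 and 22528 in sgControl libraries. The lowest sgNSD3 library was above the highest sgControl library, at a 1.09-fold difference (log2 fold 0.12 ± 0.026, adjusted p = 0.00453). Col16a1 averaged 1388 ± 38.6 in sgNSD3 and 1466 ± 146 in sgControl and was not called (log2 fold −0.07, adjusted p = 0.39). The 4 other tested genes, Col9a2, Col9a3, Col14a1 and Col20a1, averaged 8.63 to 127 normalized counts in sgNSD3 and 11.8 to 119 in sgControl, with adjusted p-values of 0.507 to 0.697. Col22a1 had 2 reads in all, and Col9a1 and Col19a1 had 0 reads in all 6 libraries.

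Beaded-filament collagen held the 1 gene that fell. Type VI collagen is built from alpha 1, alpha 2 and another, longer chain, and 3 of its 6 genes were tested. Col6a1 (chr10:76708792-76726044) had 17078, 16888 and 17078 normalized counts in sgNSD3 libraries, against 18337, 17441 and 18492 in sgControl libraries. Every sgNSD3 value was below every sgControl value, 1.06-fold lower on average (log2 fold −0.09 ± 0.027, adjusted p = 0.0419). This call was lost without any of the sgNSD3 libraries (adjusted p of 0.129 to 0.182) or sgControl replicate 3 (0.102), and under 5 other alternatives of the same threshold. Col6a2 (chr10:76595756-76623630) had 9522, 9467 and 9524 in sgNSD3 libraries, against 9117, 8885 and 9182 in sgControl libraries. It lay above the sgControl range in all sgNSD3 libraries without passing the test (log2 fold 0.07 ± 0.027, adjusted p = 0.109).

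The ratio of Col6a1 to Col6a2 was 1.79, 1.78 and 1.79 in sgNSD3 libraries, against 2.01, 1.96 and 2.01 in sgControl libraries. It was lower in all sgNSD3 libraries, the opposite direction to the alpha 1 to alpha 2 ratios of types I and V (log2 difference −0.16, exact permutation p = 0.1, adjusted 0.125). Of the 5 ratios, 4 did not overlap between conditions, and Col1a1/Col1a2 and Col3a1/Col1a1 share a gene. How often ratios of other gene pairs do not overlap was not counted. Leaving out 1 library cannot reverse a ratio without overlap, so that check bears only on Col4a1/Col4a2, which kept its sign. Col6a3, the usual partner of these chains, had 464, 419 and 403 in sgNSD3 libraries, against 440, 452 and 417 in sgControl libraries, with overlapping ranges (adjusted p = 0.863). Col6a4, Col6a5 and Col6a6, its alternatives, had 33, 19 and 13 reads in all and were not tested. Col6a5 was read at 3.11, 5.77 and 6.86 normalized counts in sgNSD3 libraries, against 1.05, 0.960 and 1.02 in sgControl libraries.

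Outside these classes, the multiplexin Col18a1 and both type VIII chains rose. Col18a1 (chr10:77052178-77166530), a basement membrane proteoglycan core whose C-terminal fragment is endostatin, had 197, 174 and 195 normalized counts in sgNSD3 libraries, against 126, 139 and 133 in sgControl libraries. The groups lay well apart, at 189 ± 12.7 in sgNSD3 and 133 ± 6.74 in sgControl (log2 fold 0.50 ± 0.10, adjusted p = 0.00134). Of 5 endothelial markers, 1 was called, Kdr, which averaged 191 in sgNSD3 and 115 in sgControl. The sum over the 5 was 198 to 239 in sgNSD3 libraries and 123 to 148 in sgControl libraries, nearly all of it Kdr. Tek was not called, Pecam1, Cdh5 and Vwf were near 0, and the part of Kdr in the result was not tested. The related Col15a1 averaged 8.65 in sgNSD3 and 10.7 in sgControl (adjusted p = 0.68).

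Type VIII collagen is a short-chain collagen that forms hexagonal networks, as under the corneal and vascular endothelium. Col8a1 (chr16:57624256-57754737) had 9589, 9675 and 9743 normalized counts in sgNSD3 libraries, against 8611, 8811 and 8731 in sgControl libraries. The conditions were separate, with a 1.11-fold difference (log2 fold 0.15 ± 0.027, adjusted p = 4.3e-04). Col8a2 (chr4:126286794-126314330) had 1159, 1169 and 1167 in sgNSD3 libraries, against 1091, 971 and 1025 in sgControl libraries. It was 1.13-fold higher in sgNSD3 (log2 fold 0.18 ± 0.047, adjusted p = 0.00982), with the call lost without sgNSD3 replicate 2 (0.0503) or sgControl replicate 2 (0.073). The remaining short-chain gene, Col10a1 of hypertrophic cartilage, averaged 42.4 in sgNSD3 and 34.0 in sgControl and was not called (adjusted p = 0.337).

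Col7a1, the collagen of the anchoring fibrils under epithelia, had 72.6, 91.4 and 84.3 normalized counts in sgNSD3 libraries, against 62.9, 52.8 and 73.3 in sgControl libraries. The highest sgControl library passed the lowest sgNSD3 library, and the log2 fold of 0.39 ± 0.16 missed the threshold (adjusted p = 0.104). Among transmembrane collagens, Col17a1 of hemidesmosomes averaged 39.7 in sgNSD3 and 35.95 in sgControl (adjusted p = 0.706), and Col23a1 averaged 348 in sgNSD3 and 329 in sgControl (adjusted p = 0.561). Col13a1, Col25a1, Col26a1 and Col28a1 had 1, 5, 1 and 22 reads in all and were not tested.

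**Figure D4:**
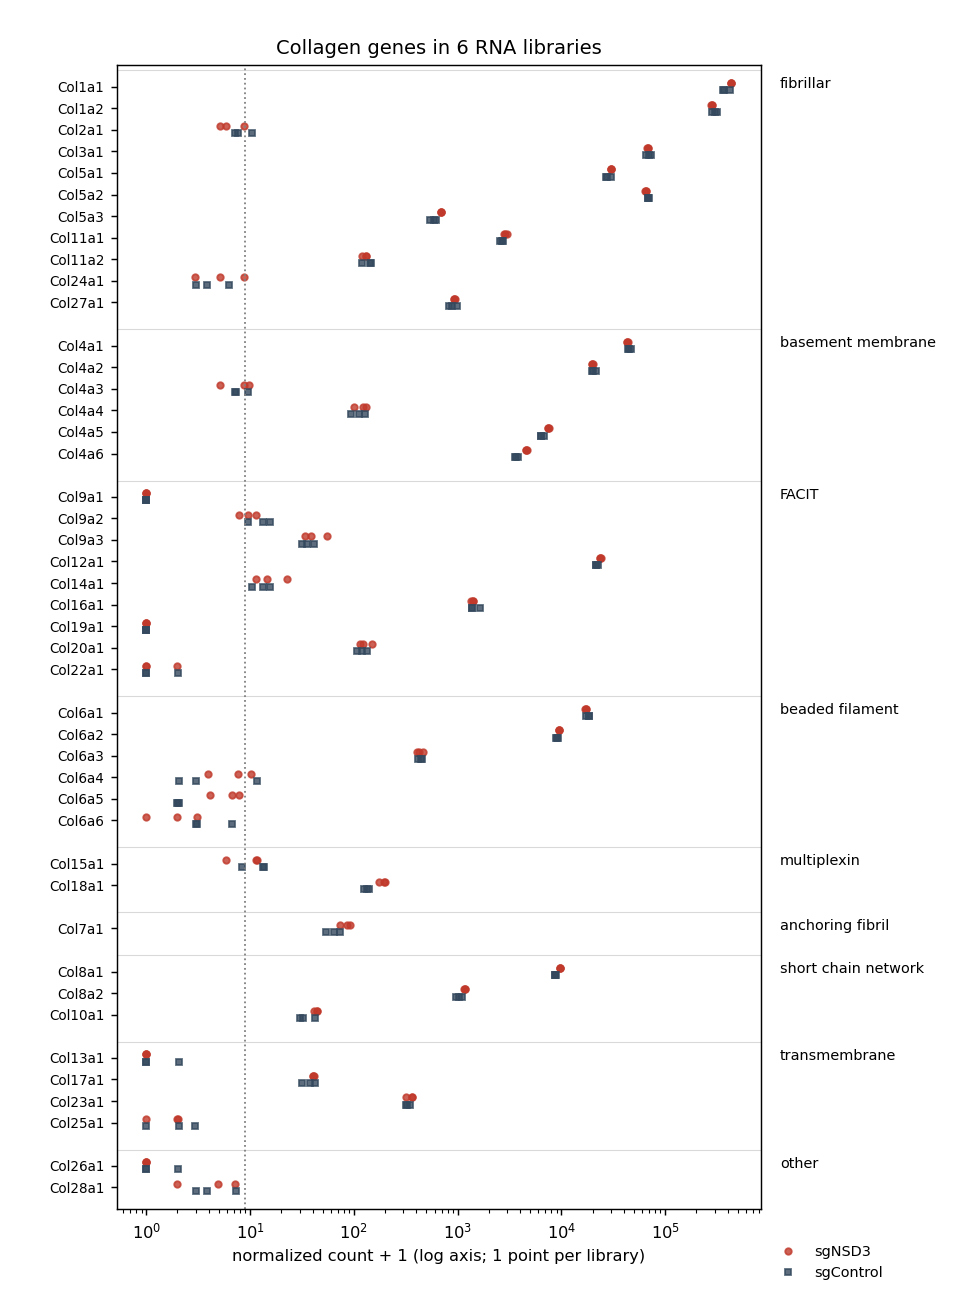
Normalized counts plus 1 (log axis) of the 44 collagen genes in each of the 6 libraries, by class, with sgNSD3 points above sgControl points in each row; the dotted line marks the minimum mean of 8 for testing. The 31 tested genes have a mean right of the line, and Col9a1 and Col19a1 have no reads in any library.

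In sgControl, replicate 1 was the highest of the 3 libraries for 7 of the 8 collagen genes with the most reads, Col12a1 being the exception. These were Col1a1, Col1a2, Col3a1, Col5a1, Col5a2, Col4a1 and Col4a2, and this library also had the highest share of ribosomal RNA and mitochondrial reads. Without it, the number of collagen genes called lower was 2 rather than 1. The number called higher was 6 to 10 over the 6 choices of a library left out. Whether RNA quality or library preparation played a part was not tested.

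The genes were also set against their length on the chromosome, since long genes were called higher more often in these libraries. Of all tested genes with a RefSeq span, those of at least 100 kb were called higher in 16.4% of 1768 cases and lower in 7.81%, and shorter genes were called higher in 4.39% of 13531 cases and lower in 7.04%. Of the tested collagen genes, 15 span at least 100 kb, of which 6 were higher (40.0%) and the rest were not called. The other 16 held 3 higher genes (18.8%), which were Col1a1, Col5a3 and Col8a2, and 1 lower gene, Col6a1. The difference between long and short collagen genes, and the part of span in the result, were not tested.

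Genes for enzymes and receptors that handle collagen changed in both directions. Over 4 lists, 42 genes were tested, 8 were higher in libraries labelled sgNSD3 and 6 were lower, beside 5.43% and 6.43% of all genes. Of 22 genes for chain modification and folding, 2 were higher and 3 lower, with a median log2 fold of −0.04. P3h2, a prolyl 3-hydroxylase, averaged 92.6 ± 9.15 normalized counts in sgNSD3 and 49.7 ± 3.98 in sgControl (1.86-fold, adjusted p = 1.94e-04). P4ha3, a catalytic subunit of prolyl 4-hydroxylase, averaged 412 ± 36.7 in sgNSD3 and 265 ± 21.5 in sgControl (1.56-fold, adjusted p = 4e-06). Lower were the collagen galactosyltransferase Colgalt1 (log2 fold −0.14, adjusted p = 0.00614), the chaperone Fkbp10 (−0.13, 0.00468) and P4hb, the common subunit of prolyl 4-hydroxylase (−0.10, 0.0104). All 3 lost their calls without sgNSD3 replicate 1, and P4hb also without replicate 2.

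Of 7 tested genes for the trimming of procollagen, 1 was called. Adamts2, which removes the amino-terminal propeptide of types I, II and III procollagen, averaged 3259 ± 31.7 normalized counts in sgNSD3 and 2595 ± 172 in sgControl (1.26-fold, adjusted p = 9.49e-07). All 5 cross-linking oxidases were tested and 3 were called, in different directions. Lox averaged 51129 ± 605 in sgNSD3 and 46364 ± 1904 in sgControl (1.10-fold higher, adjusted p = 0.00224). Loxl3 averaged 1242 in sgNSD3 and 1461 in sgControl (1.18-fold lower, adjusted p = 3e-04), and Loxl2 averaged 8622 in sgNSD3 and 9248 in sgControl (1.07-fold lower, adjusted p = 0.0185). The Loxl2 call was lost under quantile normalization and without any sgNSD3 library or sgControl replicate 2, with adjusted p-values over all alternatives from 0.00176 to 0.195.

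Among 8 tested receptors and uptake genes, 4 were higher and 1 was lower, with a median log2 fold of 0.14. Ddr2, a receptor kinase for fibrillar collagen, averaged 6252 ± 41.5 normalized counts in sgNSD3 and 5406 ± 104 in sgControl (1.16-fold, adjusted p = 1.22e-05). Mrc2, the endocytic collagen receptor, averaged 1583 ± 74.8 in sgNSD3 and 1314 ± 63.7 in sgControl (1.21-fold, adjusted p = 1.29e-04). Both held in every alternative. The collagen integrin subunit Itga11 (1.22-fold, adjusted p = 0.0342) and the receptor kinase Ddr1 (1.08-fold, adjusted p = 0.0268) were also higher, but each lost its call without any sgNSD3 library or without sgControl replicate 2 or 3. Itgb1, the beta subunit that all collagen-binding integrins share, averaged 23721 ± 395 in sgNSD3 and 26540 ± 746 in sgControl (1.12-fold lower, adjusted p = 2.74e-04).

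Chromatin was read by CUT&RUN, in which an antibody directs a nuclease to cut out marked nucleosomes, for H3K36me2, a mark of gene bodies and intergenic domains, and H3K27me3, the mark of Polycomb repression. The authors' deposited table gives each gene body 1 signed score for H3K27me3 and 2 for H3K36me2. Its header does not say which libraries or conditions lie behind a score, so the scores are described and no direction between sgNSD3 and sgControl is drawn. In the authors' deposited table, the mean of both H3K36me2 scores was above 0 for all 44 collagen gene bodies, beside 94.9% of all gene bodies, and its median was 0.123, beside 0.1 over all.

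Counts by class relative to that overall median of H3K36me2 were as follows. In the authors' deposited table, 9 of 11 fibrillar, 6 of 6 basement membrane and 6 of 6 beaded-filament gene bodies lay above it, and 2 of 9 FACIT gene bodies lay above it. With each column of the authors' deposited table taken alone, against its own median, the FACIT count was 4 and 3 of 9, and the fibrillar count was 8 of 11 in both. Differences between classes were not tested. The highest means in the authors' deposited table were those of Col14a1 (0.31, from scores of 0.206 and 0.415), Col6a3 (0.242), Col4a1 (0.224) and Col6a6 (0.216). The lowest in the authors' deposited table were those of Col27a1 (0.0298), Col17a1 (0.0464), Col9a1 (0.0578) and Col22a1 (0.0586). Both ends held genes that passed the RNA minimum (Col14a1, Col6a3 and Col4a1 at the top, Col27a1 and Col17a1 at the bottom) and genes that did not. In the authors' deposited table, both H3K36me2 columns put 27 of 44 collagen gene bodies on the same side of the column's overall median, and the columns ranked them with a Spearman rho of 0.228, beside 0.223 over all gene bodies. Col4a5 and Col4a6, the pair that rose in RNA, had near-equal scores of 0.0771 each in 1 column and 0.235 and 0.236 in the other, in the authors' deposited table. Near-equal scores in the first of these columns were not particular to that pair. In the authors' deposited table, Col4a1 and Col4a2 had 0.116 each there, against 0.332 and 0.142 in the other column, and Col9a3 had 0.0772.

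For H3K27me3, collagen gene bodies were split by whether their RNA was tested, and the shares are given beside those of all gene bodies. In the authors' deposited table, 13 of 44 collagen gene bodies (29.5%) were above 0 for H3K27me3, beside 31.5% of all. Among the 31 genes with enough RNA to test, 5 were above 0 (16.1%) and the median was −0.0447 in the authors' deposited table. Among the 13 with less RNA, 8 were above 0 (61.5%) and the median was 0.0834 in the authors' deposited table. The same split over all gene bodies of the authors' deposited table gave 18.1% of 12619 with enough RNA and 51.3% of 8501 with less. Over all 44 genes, the H3K27me3 score of the authors' deposited table and the mean normalized count, which is not divided by length, had a Spearman rho of −0.196. The highest H3K27me3 scores in the authors' deposited table were those of Col6a5 (0.294), Col4a3 (0.269), Col13a1 (0.269) and Col9a1 (0.23), none of which had enough RNA to test. The lowest in the authors' deposited table were those of Col26a1 (−0.255), Col2a1 (−0.179), Col23a1 (−0.176) and Col17a1 (−0.17), of which Col26a1 and Col2a1 had too little RNA as well.

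By class, the authors' deposited table put H3K27me3 above 0 for 5 of 9 FACIT gene bodies, 1 of 11 fibrillar, 1 of 6 basement membrane and 2 of 6 beaded-filament gene bodies. The share over all gene bodies was 31.5%. Of the FACIT gene bodies above 0 in the authors' deposited table, Col9a1, Col19a1 and Col22a1 had too little RNA to test, and Col12a1 and Col14a1 had enough. Differences between classes were not tested. Over the 31 tested genes, the log2 RNA fold ranked with the H3K36me2 mean of the authors' deposited table at a Spearman rho of −0.082, and with its H3K27me3 score at 0.323. These describe genes that share libraries and a table, and were not tested.

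**Figure D5:**
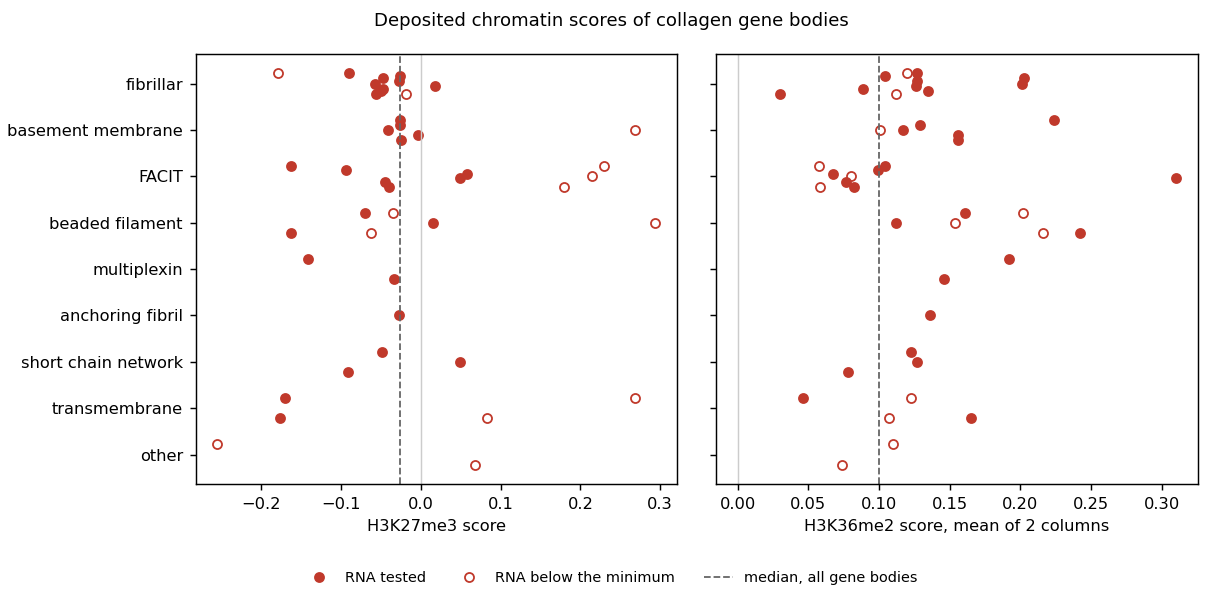
Chromatin scores of the 44 collagen gene bodies in the authors' deposited table by class, H3K27me3 on the left and the mean of 2 H3K36me2 columns on the right; open points are genes with too little RNA to test and dashed lines the median of all gene bodies. Of 13 open points, 8 lie above 0 for H3K27me3, and FACIT points lie mostly left of the H3K36me2 median line.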

How the data were processed

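Total RNA of 3 libraries labelled sgNSD3 and 3 labelled sgControl was analysed, with the authors' gene body scores. The mm10 build and the tools featureCounts, HISAT2 and DESeq2 are named per the submitters' processing notes, and their versions and settings are not given in the sources used here. The deposited RNA table is in log2 units normalized by DESeq2, on which a gene without reads sits at 8.45. That these come from the variance-stabilising transform of DESeq2 was inferred from the values, since the column names do not state it. Inverting that transform gave whole reads (within 0.05) for 100% of values, 20294828 to 21863833 per library, and normalized counts. The deposited chromatin score is signed, 1 value per gene body and column, with its making not stated. There were 0 value columns without a sample.

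Genes with a mean of at least 8 normalized counts (18278 of 55433) were tested on the authors' log2 values by lmFit and trended eBayes of limma 3.58.1 (R 4.3.3), with p-values adjusted by Benjamini-Hochberg and a threshold of 0.05. The fit was also run on simulated data, in which the smallest change set was larger than most of those called in collagen genes. Smaller changes were not simulated. The outcome of that run is not given here and is not taken as a check on the calls above. Log2 folds and SE came from the same fit to log2(normalized count + 1), a scale that shrinks the change of genes with few reads. Ratios of chain genes were compared by exact two-sided permutation.

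The genes, classes and lists were chosen with earlier results of these data known. Named with values per library were the called genes and the 8 with the highest mean normalized count, in place of a planned ranking per kilobase, for which no transcript lengths were at hand. The called genes with the largest log2 fold, up to 5 per list, were named for the collagen-handling lists. Other genes given per library (Col6a2, Col6a3, Col6a5 and Col7a1) were chosen after their values were seen. Promoter windows and gene spans are from RefSeq tables of GRCm38.p6, and 83.7% of the genes tested had a span.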

Additional observations from a re-analysis of the deposited data

How the results depend on the processing

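The count of collagen genes called higher (9) was 8 to 10 under the other settings of scale, filter, scaling and test, and 6 to 10 when 1 library was left out. Similar counts did not always hold the same genes, as under quantile normalization the 10 called higher lacked Col1a1 and included Col5a1 and Col6a2. The count called lower (1, Col6a1) was 0 under trimmed mean scaling and without a mean-variance trend, 3 on the log2(normalized count + 1) scale and 4 with limma voom on the recovered reads. It stayed at 1 without a filter on low values and under quantile normalization, but the gene was Col1a2 in place of Col6a1. It was 0 at an adjusted p threshold of 0.01, chosen after the data were seen, and 0 to 2 when 1 library was left out. Collagen-handling genes called higher (8) and lower (6) were 6 to 8 and 2 to 7 when 1 library was left out, with 2 lower without sgNSD3 replicate 1, and 5 to 8 under the other settings. No called gene changed sign in any setting, though Col1a1 was at a log2 fold of 0.00 (adjusted p = 1) under quantile normalization, where the gene has the same rank in every library and the method sets its values equal. The cause of the other changes was not tested. Of 21 tested genes not called, 5 were called under some alternative (Col1a2, Col5a1, Col5a2, Col4a1 and Col6a2). With ribosomal RNA loci and mitochondrial genes taken out of the total, collagen genes took 5.39% of reads in sgNSD3 and 5.24% in sgControl. Same-numbered libraries of the 2 conditions did not deviate together (correlations of 0.045, 0.016 and −0.013 by the numbers of the titles, and −0.066, −0.007 and −0.04 by those of the columns), so the numbers were not taken as pairs. With the title number as a replicate block, 10 collagen genes were higher and 1 lower, and with the column number as a replicate block 9 were higher and 0 lower. All 44 collagen gene bodies were above 0 for the mean H3K36me2 score, and 43 and 44 with each column alone. The count by class was not as stable, since FACIT gene bodies above the overall median numbered 2 for the mean and 4 and 3 for the columns. Low read numbers kept 13 genes under the minimum mean, so differences in them, Col6a5 included, were not tested.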
